A study of Mus musculus with 8 samples.

Results

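The genes described here make and move sterols and fatty acids. They were taken from a list of 39 symbols for cholesterol synthesis, its sensing, sterol transport and fatty acid synthesis, matched by exact symbol, which found 38 of the 23284 gene entries measured. The symbol that was not found, Msmo1, stands in the table under its older name Sc4mol and is given apart. RNA sequencing covered mouse embryonic stem (ES) cells of mixed strain from 2 clones. Clone 6 (the transgenic line) carries a Ctcfl transgene that doxycycline induces, Ctcfl being the germline relative of the insulator protein Ctcf, and clone 7 (the non-transgenic line) lacks it. Both clones were grown on embryonic fibroblast feeders and then spent 48 h on dishes free of feeders, either in doxycycline at 2 µg/ml or in medium lacking it, which gives 4 groups of 2 libraries each. Each line is 1 clone, so whatever separates the lines cannot be told apart from the transgene, and the labels call the 2 libraries of a group biological replicates without saying how the cultures were kept apart.

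Cells build cholesterol from acetyl-CoA through mevalonate, isoprenoid diphosphates, squalene and lanosterol. When membranes of the endoplasmic reticulum are poor in sterol, the escort protein Scap carries the membrane-bound factors Srebf1 and Srebf2 to the Golgi, where they are cut free and go on to switch on the genes of sterol and fatty acid synthesis, often together with the CCAAT-binding factor NF-Y. Insig proteins hold Scap back when sterol is plentiful. Surplus sterol activates LXR receptors, which raise the efflux pumps Abca1 and Abcg1.

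The promoters of the list carry these inputs to different degrees, and 4 are shown because the results below come back to them: the abundant mevalonate enzyme gene Hmgcs1, the feedback gene Insig1, and Ebp and Elovl6, which had the smallest p-values between the lines. They are RefSeq promoter windows on build GRCm38.p6, on the strand of the gene, cut to bases before the transcription start that lie in no GENCODE M21 exon. Capitals mark a sterol regulatory element (TCACNCCAC), an NF-Y box (CCAAT) or an E-box (CACGTG), each searched on both strands. The windows are chr13:119690101-119690350 (plus strand) for Hmgcs1, chr5:28071162-28071362 (plus) for Insig1, chrX:8193513-8193762 (minus) for Ebp and chr3:129532136-129532256 (plus) for Elovl6.
Hmgcs1: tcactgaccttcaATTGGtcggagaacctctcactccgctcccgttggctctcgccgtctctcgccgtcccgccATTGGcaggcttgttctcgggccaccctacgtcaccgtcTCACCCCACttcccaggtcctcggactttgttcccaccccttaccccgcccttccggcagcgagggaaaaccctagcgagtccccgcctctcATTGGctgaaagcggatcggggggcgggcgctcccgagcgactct
Insig1: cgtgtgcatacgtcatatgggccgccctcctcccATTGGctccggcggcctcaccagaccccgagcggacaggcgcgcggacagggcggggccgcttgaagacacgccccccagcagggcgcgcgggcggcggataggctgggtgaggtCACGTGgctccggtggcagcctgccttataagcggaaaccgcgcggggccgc
Ebp: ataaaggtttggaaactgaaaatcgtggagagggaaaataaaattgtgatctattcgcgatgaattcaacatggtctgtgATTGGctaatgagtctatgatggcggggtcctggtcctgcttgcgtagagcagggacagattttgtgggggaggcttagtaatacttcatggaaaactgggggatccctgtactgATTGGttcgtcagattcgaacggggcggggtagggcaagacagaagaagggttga
Elovl6: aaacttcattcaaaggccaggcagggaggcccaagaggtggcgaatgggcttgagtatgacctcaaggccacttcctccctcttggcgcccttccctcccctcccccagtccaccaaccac

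Promoter windows of 300 bases, 250 before and 50 after the start, were found for 29 of the 38 genes. Fdps, Fdft1, Sqle, Scd1, Scd2, Fads1, Npc1, Abcg1 and Stard4 had none. An NF-Y box stood in a window of 22 of these 29 genes (75.9%), against 41.1% of the 27025 genes with a window. A gene can have more than 1 window, and counted by window the shares were closer. They were 59.0% of the 39 windows of the list and 37.4% of all 32851 windows. All 8 genes of the steps from squalene to cholesterol that had a window held one, as did 6 of 7 mevalonate and isoprenoid genes and 4 of 5 sterol sensing genes, against 3 of 6 fatty acid synthesis genes. The sterol regulatory element in these exact letters was found in 1 of 29 genes, Hmgcs1, at positions -137 to -129 from its start, and in 1.44% of all genes. An E-box was in 6 of 29 genes (20.7%), among them Insig1 at positions -101 to -96, and in 8.09% of all genes. The LXR repeat of type DR4 in its ideal letters was in 0 of the 29 genes and in 4 of all genes. In the windows printed above Ebp holds 2 NF-Y boxes and Elovl6 holds no match. These matches describe letters only and no binding was measured.

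Levels are in FPKM, a fragment count corrected for transcript length and for the number of fragments mapped. The authors deposited 1 such value per gene and group. Every level is therefore a group value with no SD, and the depth of a library is unknown. Where 4 levels are listed they stand in the order transgenic line with doxycycline, transgenic line without, non-transgenic line with, non-transgenic line without. The stem cell gene Pou5f1 was between 1011 and 1116 FPKM in all 4 groups. Of 16 fibroblast (feeder) markers 14 reached a mean of 1 FPKM, and their summed level was 297, 296, 228 and 231 FPKM. These markers did not all move together. Col1a1 was at 140, 132, 86.8 and 92.8 FPKM, and others, such as Col5a1 and Lox, were also higher in both groups of the transgenic line. Col6a1 (14.8, 16.9, 17.7 and 18.5 FPKM) and Thy1 (25.3 to 26.9 FPKM over the groups) were lower there. Endoderm markers summed to between 10.2 and 11.7 FPKM, with 2 of 14 listed at 0 in every group. The 5 neural markers in the table summed to 97.3, 105, 83.0 and 89.2 FPKM and did not move together. Olig2 was at 25.8, 30.5, 0.0784 and 0.0854 FPKM, a gap between the lines that the deposited test did not call, while Tubb3 (37.6, 37.4, 48.6 and 51.7 FPKM), Pax6 (0.991, 0.916, 3.28 and 2.30 FPKM) and Sox1 (0.156 to 0.870 FPKM over the groups) were at lower levels in the transgenic line. In that line Ctcfl itself had 0.995 FPKM after doxycycline and 0.403 FPKM in its absence (q = 0.296 in the authors' deposited table). The non-transgenic line had Ctcfl at 0.498 and 0.513 FPKM, above the transgenic line without doxycycline, so the table holds no call that shows the transgene induced.

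Nearly the whole pathway was expressed. Of the 38 genes 37 had a mean over the groups of at least 1 FPKM and 35 of at least 5 FPKM. Together the 38 made up 0.290%, 0.293%, 0.268% and 0.277% of all FPKM in the 4 groups. Apoe, the lipid-carrying apolipoprotein, was the most abundant at a mean of 397 FPKM, above 98% of the 12156 genes with a mean of at least 1 FPKM. Fdps, which makes farnesyl diphosphate, followed at 211 FPKM, then Hmgcs1 at 136 FPKM and the fatty acid desaturase gene Scd2 at 135 FPKM. At the other end stood the efflux pump genes Abca1 at 0.793 FPKM and Abcg1 at 2.27 FPKM, and Acss2, whose enzyme makes acetyl-CoA from acetate, at 2.90 FPKM.

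**Figure D1:**
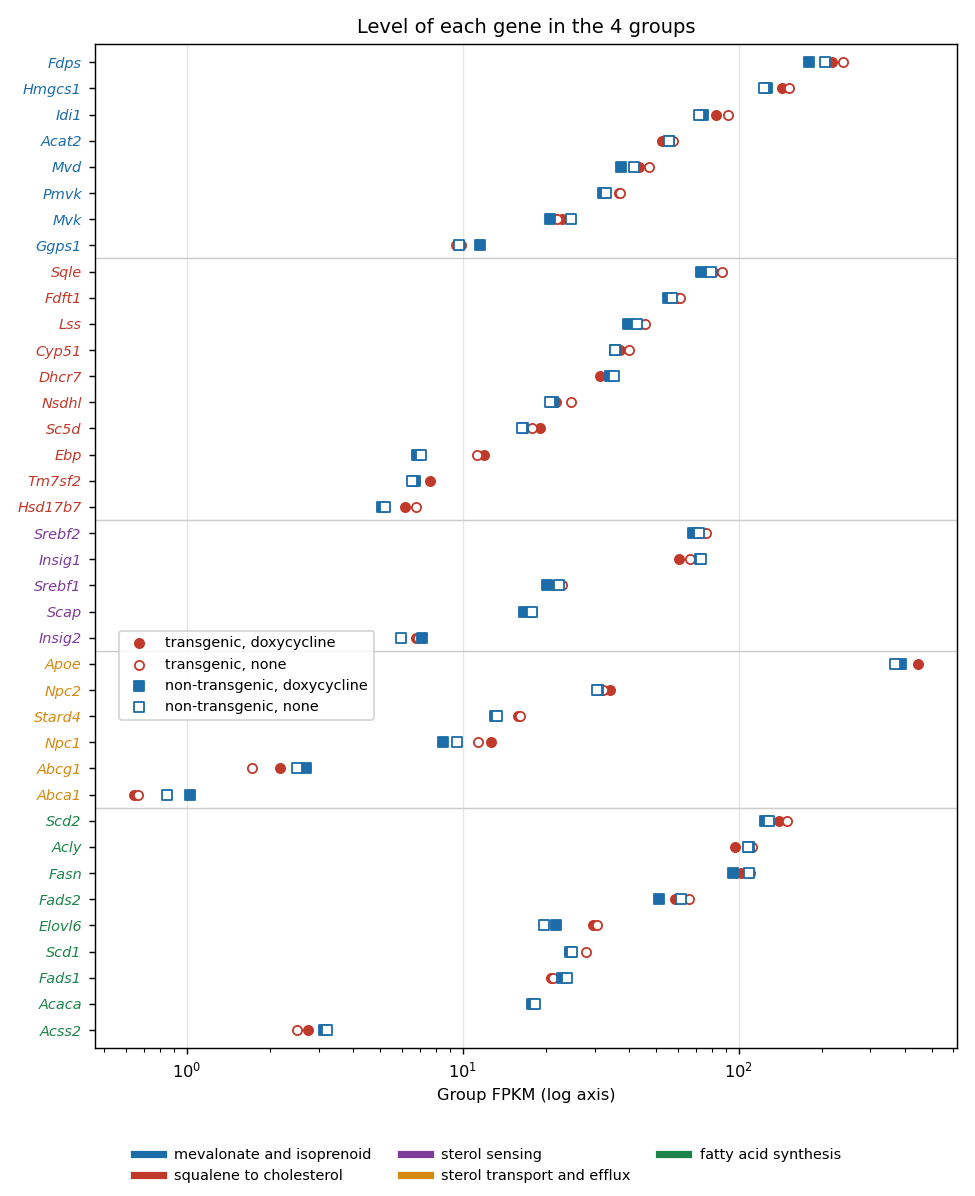
Group FPKM on a log axis of the 38 genes, ordered by role and mean level, with 1 marker per group (circles, transgenic line; squares, non-transgenic line; filled, doxycycline; open, none), where markers can hide each other. Apoe lies at 369 to 448 FPKM and Abca1 at 0.641 to 1.02 FPKM, and Ebp and Elovl6 show both circles to the right of both squares. Other genes named in the text show the same order at narrower spans.

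In the first steps, Hmgcs1, which joins acetyl-CoA to acetoacetyl-CoA, was at 143, 152, 126 and 124 FPKM. Idi1, which interconverts the isoprenoid building blocks, was at 83.0, 91.5, 74.1 and 71.9 FPKM. Fdps was at 218, 239, 181 and 206 FPKM. Each of these 3 was highest in the transgenic line without doxycycline, and both groups of the transgenic line were above both groups of the non-transgenic line. The same held for Pmvk and Mvd. The share of all genes with such an order was not counted. The thiolase gene Acat2 (52.5 to 57.9 FPKM), the kinase genes Mvk (20.6 to 24.6 FPKM) and Pmvk (32.2 to 37.2 FPKM) and the decarboxylase gene Mvd (37.5 to 47.2 FPKM) spanned less than 1.5-fold. So did Hmgcs1, Idi1 and Fdps, at 1.23-, 1.27- and 1.33-fold. Ggps1, which extends farnesyl to geranylgeranyl diphosphate, was at 9.43 to 11.6 FPKM, and the ratio of Fdps to Ggps1 was 22.2, 25.4, 15.6 and 21.2. Reads of Fdps are the least certain of the list, because 80.4% of the 75-base windows in its longest transcript also occur in transcripts of other genes, among them several predicted Gm genes. The same share was 47.4% for Acaca, 40.7% for Acat2, 29.1% for Idi1, 25.4% for Fdft1, 12.2% for Hmgcs1 and 10.2% for Scap, and under 10% for the others.

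From squalene on, the levels fell into a higher and a lower set. Sqle, the squalene epoxidase gene, was at 80.5, 86.8, 72.8 and 79.5 FPKM. Squalene synthase (Fdft1) ranged from 55.6 to 61.1 FPKM, lanosterol synthase (Lss) from 39.6 to 45.6 FPKM, the lanosterol demethylase gene Cyp51 from 35.5 to 39.9 FPKM and Dhcr7, the reductase of the last step, from 31.3 to 35.4 FPKM. Lower were the sterol dehydrogenase gene Nsdhl (20.6 to 24.6 FPKM), the desaturase gene Sc5d (16.4 to 19.1 FPKM), the sterol reductase gene Tm7sf2 (6.54 to 7.60 FPKM) and the keto-sterol reductase gene Hsd17b7 (5.10 to 6.75 FPKM). Ebp, the isomerase that shifts the ring double bond of the sterol, was at 11.9, 11.3, 6.82 and 7.07 FPKM. Its 2 groups from the transgenic line lay above those from the non-transgenic line, and its highest group was 1.74 times its lowest, the widest span of the genes of the list with a mean of at least 1 FPKM. The same order of the lines was seen, at narrower spans, in Sqle, Fdft1, Lss, Cyp51, Nsdhl, Hsd17b7 and Sc5d. Sc4mol, the older name of the methyl sterol oxidase gene Msmo1 per the RefSeq table, was at 71.2, 79.8, 66.6 and 63.9 FPKM and was not called in any of the 4 comparisons (p from 0.0991 to 0.786 in the authors' deposited table).

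Among the sensors, Srebf2, the factor tied mainly to sterol synthesis, was at 72.5, 76.2, 68.5 and 71.7 FPKM. Both groups of the transgenic line lay above the other pair for Srebf2 too. Srebf1, tied mainly to fatty acid synthesis, was at 21.2, 23.0, 20.2 and 22.3 FPKM. Srebf2 was thus 3.22 to 3.42 times as high as Srebf1 on the FPKM scale in every group. Scap had one of the narrowest ranges, 16.6 to 17.9 FPKM. Insig1, itself a target of the sterol pathway, was at 60.6, 66.6, 72.4 and 73.1 FPKM, and here the groups of the transgenic line were the lower ones. Insig2 was at 5.96 to 7.13 FPKM, so that Insig1 exceeded it 8.98 to 12.3 times.

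For transport, Apoe was at 448, 383, 387 and 369 FPKM, highest in the transgenic line with doxycycline. Npc2, the soluble carrier that lifts cholesterol out of the lysosome, was at 30.6 to 34.1 FPKM, and its membrane partner Npc1 at 12.6, 11.3, 8.49 and 9.56 FPKM. Stard4, a cytosolic sterol carrier, was at 15.8, 16.1, 13.1 and 13.3 FPKM. Npc1, Npc2 and Stard4 were higher in both groups of the transgenic line, while Abca1 (0.641, 0.662, 1.02 and 0.848 FPKM) and Abcg1 (2.17, 1.72, 2.70 and 2.49 FPKM) were lower there.

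Among the fatty acid genes, Acly, which makes acetyl-CoA from citrate, was at 97.3, 112, 109 and 109 FPKM. Fasn, the synthase that makes palmitate, was at 102, 110, 95.6 and 109 FPKM. The carboxylase gene Acaca had the narrowest span of the list, from 17.8 to 18.2 FPKM. Elovl6, which lengthens palmitate, was at 29.7, 30.7, 21.7 and 19.6 FPKM, with both groups of the transgenic line above the other pair. Scd2 showed the same order, while Fads1 and Acss2 were lower in both groups of the transgenic line. Scd2 exceeded Scd1, both desaturases of saturated chains, 5.07 to 5.75 times, and windows shared with other genes made up 1.80% of Scd2 and 3.24% of Scd1. The polyunsaturated fatty acid desaturases Fads1 and Fads2 were at 20.9 to 23.9 FPKM and 51.5 to 66.0 FPKM, and Acss2 was at 2.74, 2.49, 3.14 and 3.20 FPKM.

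Across the 4 groups the highest level of a gene was, at the median, 1.19 times the lowest for the 37 genes with a mean of at least 1 FPKM, and also 1.19 times for all 12156 such genes. The span was under 1.5-fold in 34 of the 37 and in 10239 of the 12156. At a mean of at least 5 FPKM the medians were 1.19 for 35 genes of the list and 1.15 for 8648 genes. Of the 38 genes 21 had their highest level in the transgenic line without doxycycline and 18 had their lowest in the non-transgenic line with doxycycline. These 2 counts were not made over all genes and are not read as a trait of the list.

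The first comparison asks whether the list responds to doxycycline in the line that carries the transgene. No gene of the list was called, a call being a q-value under 0.05 in the authors' deposited table. Apoe had the smallest p at 1.17-fold (0.22 on the log2 scale, approximate 95% interval -0.01 to 0.46, p = 0.219 and q = 1.00 in the authors' deposited table). This interval for Apoe is narrower than its deposited p would give, with a standard error of 0.12 against 0.18 from the p. Abcg1 followed at 1.26-fold (p = 0.249) and Acly at 0.872-fold (p = 0.252) in the authors' deposited table. Folds over the whole list ran from 0.869 for Scd1 to 1.26 for Abcg1, so all lay well inside a 2-fold change as estimates.

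The deposited Cuffdiff-type test thus called 0 of the 38 in either direction, while it called 0.108% of all 13003 genes it tested. At an unadjusted p under 0.05 there were 0 of 38, against 1.08% of all tested genes. On the log2 scale 12 of the 38 were above 0 and 26 below. The median on the log2(FPKM + 1) scale was -0.06 over 37 genes, against 0.0005 over all 12156 genes with the same minimum. Of those 12156 genes 50.2% were above 0. Below 0 were 6 of 8 mevalonate and isoprenoid genes, 7 of 10 genes from squalene on, 4 of 5 sensors and 7 of 9 fatty acid genes, but 2 of 6 transport genes. Group medians were -0.10, -0.08, -0.07 and -0.09 for the synthesis and sensing groups and 0.15 for the 5 transport genes other than Abca1, which is below the minimum. An approximate 95% interval built from the deposited test statistic lay inside a 2-fold change either way for 34 of the 38 genes. With so few libraries a p that misses the threshold does not show that a gene stayed the same, and the intervals give the sizes that remain possible. As these are bulk libraries, a change in the mix of cells and a change of RNA per cell cannot be told apart.

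**Figure D2:**
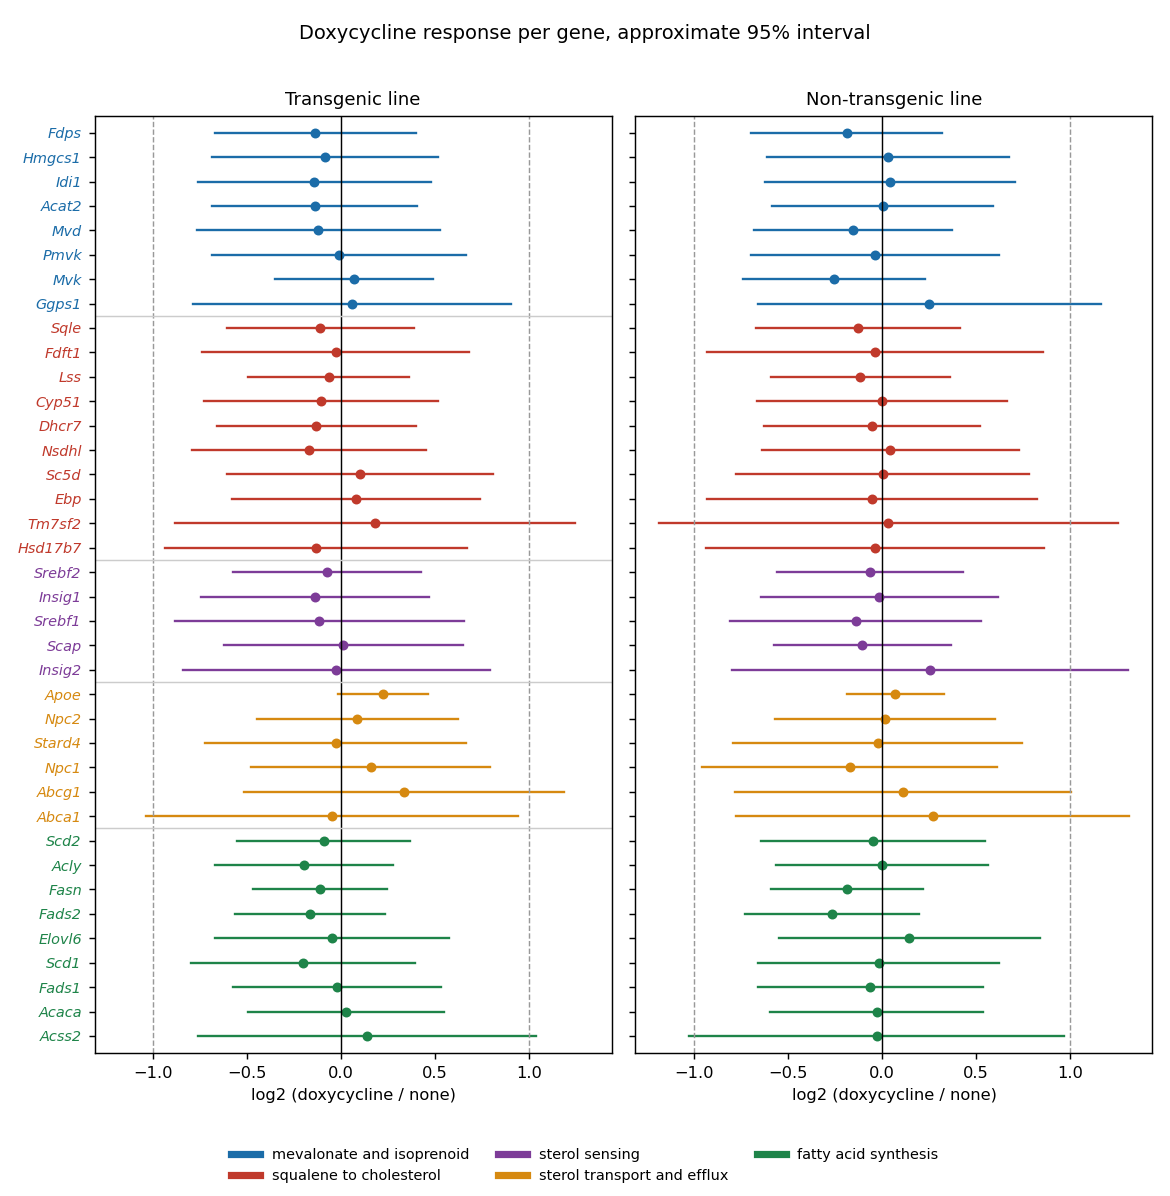
Log2 ratio of FPKM with over without doxycycline for the 38 genes in the transgenic (left) and non-transgenic line (right), with approximate 95% intervals from the deposited test statistic and dashed lines at a 2-fold change. Points lie between 0.869- and 1.26-fold on the left and between 0.832- and 1.20-fold on the right, and in neither panel was a gene called.

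The second comparison is the control for the drug itself, in cells without the transgene. Again no gene of the list was called. Fads2 had the smallest p at 0.832-fold (-0.27 on the log2 scale, interval -0.73 to 0.20, p = 0.250 in the authors' deposited table), followed by Fasn at 0.879-fold and Ggps1 at 1.19-fold. Counts were 0 of 38 at the q threshold, where the Cuffdiff-type test of the authors gave 0% of all 12908 genes it tested, and 0 of 38 at an unadjusted p under 0.05, where 0.108% of all were. On the log2 scale 14 genes were above 0 and 24 below, with a median of -0.03 on the log2(FPKM + 1) scale against 0.02 over all genes. Of all 12156 genes with a mean of at least 1 FPKM, 57.8% were above 0. Below 0 were 4 of 8 mevalonate and isoprenoid genes, 7 of 10 genes from squalene on and 4 of 5 sensors. So were 7 of 9 fatty acid genes and 2 of 6 transport genes. Apart from the mevalonate and isoprenoid genes, these counts equal those in the transgenic line. Group medians in the same order were -0.02, -0.04, -0.06, -0.03 and 0.01, the last over 5 transport genes. Intervals of 32 of the 38 genes of the list lay inside a 2-fold change.

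Responses of the lines were also set against each other directly, with a two-sided normal test on the deposited statistics. The difference of the log2 responses was largest in relation to its error for Mvk, the mevalonate kinase gene, at 0.32 (transgenic minus non-transgenic, SE 0.33, interval -0.32 to 0.96). From the statistics of the authors' deposited table this gave p = 0.323, and the Benjamini-Hochberg adjusted p was 1.00. For Apoe it was 0.15 (SE 0.18) and for Npc1 0.33 (SE 0.51). For Mvk the statistic gave standard errors of 0.214 and 0.246 in the transgenic and non-transgenic line. The deposited p-values gave 0.251 and 0.277, so its place in this order depends on that choice. Of the 38 genes 0 were called and 0 had an unadjusted p under 0.05, against 0.142% and 0.459% of all 12638 genes tested. The median difference was 0.02, and 18 genes lay below 0 in both lines, 6 above 0 in both and 14 on opposite sides. For these signs no count over all genes was made. The interval lay inside a 2-fold difference for 20 of the 38, and for the other 18 it reached past a 2-fold difference.

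The third comparison sets the transgenic against the non-transgenic line without doxycycline. The largest departures were in Elovl6, at 30.7 against 19.6 FPKM, and Ebp, at 11.3 against 7.07 FPKM. Elovl6 (chromosome 3, 129532386 to 129638493) was at 1.56-fold (0.65 on the log2 scale, SE 0.32, interval 0.01 to 1.28), with p = 0.00105 and q = 0.0871 in the authors' deposited table, which did not pass. Ebp (chromosome X, 8185331 to 8193512) was at 1.59-fold (interval -0.07 to 1.41 on the log2 scale, p = 0.026 and q = 0.693 in the authors' deposited table). Next by p were Idi1 at 1.27-fold (p = 0.0534) and Abcg1 at 0.691-fold (p = 0.0682) in the authors' deposited table.

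Here too 0 of 38 genes were called, by a test that called 1.37% of all 13047 tested genes. At an unadjusted p under 0.05 there were 2 of 38, Elovl6 and Ebp, where 6.59% of all tested genes had such a p. On the log2 scale 28 of the 38 were above 0 (toward the transgenic line) and 10 below, or 26 and 12 with each group scaled to the same total. The median was 0.09 on the log2(FPKM + 1) scale, or 0.05 after that scaling, against -0.001 for all genes. As deposited, 49.3% of the 12156 genes with a mean of at least 1 FPKM were above 0. Of the mevalonate and isoprenoid genes 6 of 8 were above 0 (median 0.17) and of the genes from squalene on 9 of 10 (median 0.12), the exception being Dhcr7 at -0.05. Sensors had 3 of 5 above 0 (median 0.04), transport genes 4 of 6 (median 0.06) and fatty acid genes 6 of 9 (median 0.04). The mevalonate and isoprenoid genes summed to 657 against 566 FPKM in the 2 lines. The summed feeder markers were 296 against 231 FPKM in the same groups, of which Col1a1 made up 132 and 92.8 FPKM, with 0 of 16 called. The stem cell markers Nanog and Zfp42 were called higher and Sox2 lower in the transgenic line. The part of these markers in the sterol values was not tested.

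With doxycycline the line comparison rests on the other 4 libraries of the same 2 clones. Ebp was at 11.9 against 6.82 FPKM, 1.74-fold (0.80 on the log2 scale, SE 0.41, interval -0.01 to 1.61, p = 0.0152 and q = 0.507 in the authors' deposited table). Elovl6 was at 29.7 against 21.7 FPKM (1.37-fold, p = 0.028 and q = 0.718 in the authors' deposited table). Npc1 was at 12.6 against 8.49 FPKM (1.49-fold, p = 0.0337 and q = 0.793 in the authors' deposited table). Abca1 went the other way at 0.627-fold (p = 0.052) and Insig1 was at 0.837-fold (p = 0.205), both in the authors' deposited table.

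Again 0 of 38 genes were called, where the deposited test called 1.52% of all 13064 genes it tested, and 3 had an unadjusted p under 0.05, where 7.9% of all did. Above 0 stood 27 genes and below 0 stood 11, with a median of 0.13 against -0.02 for all genes on the log2(FPKM + 1) scale. Of all 12156 genes with a mean of at least 1 FPKM, 45.9% were above 0. Genes from squalene on were again above 0 in 9 of 10 cases (median 0.14) and mevalonate and isoprenoid genes in 6 of 8 (median 0.17). Transport genes had 4 of 6 above 0 and the largest group median, 0.21 over 5 genes. Sensors had 3 of 5 above 0 (median 0.07) and fatty acid genes 5 of 9 (median 0.02). Taking the line comparisons with and without doxycycline side by side, which share no library, 24 genes were above 0 in both, 7 below 0 in both and 7 on opposite sides. Both comparisons set the same 2 clones against each other. The same count over all genes was not made, so these counts are not read as a trait of the list. In the groups with doxycycline the feeder markers summed to 297 against 228 FPKM with 0 of 16 called. Col1a1 made up 140 and 86.8 FPKM of these sums. With doxycycline Nanog, Zfp42 and Sox2 were called in the same directions as without it. The neural marker Pax6 was also called there, at 0.991 against 3.28 FPKM (q = 0.00812 in the authors' deposited table). The part of these markers in the values of the list was not tested. Ebp, Elovl6, Npc1, Hsd17b7, Idi1 and Hmgcs1 are among the 24, and Abca1, Abcg1, Acss2, Insig1, Fads1, Dhcr7 and Ggps1 are the 7. Intervals lay inside a 2-fold change for 30 of the 38 genes without and 28 with doxycycline.

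**Figure D3:**
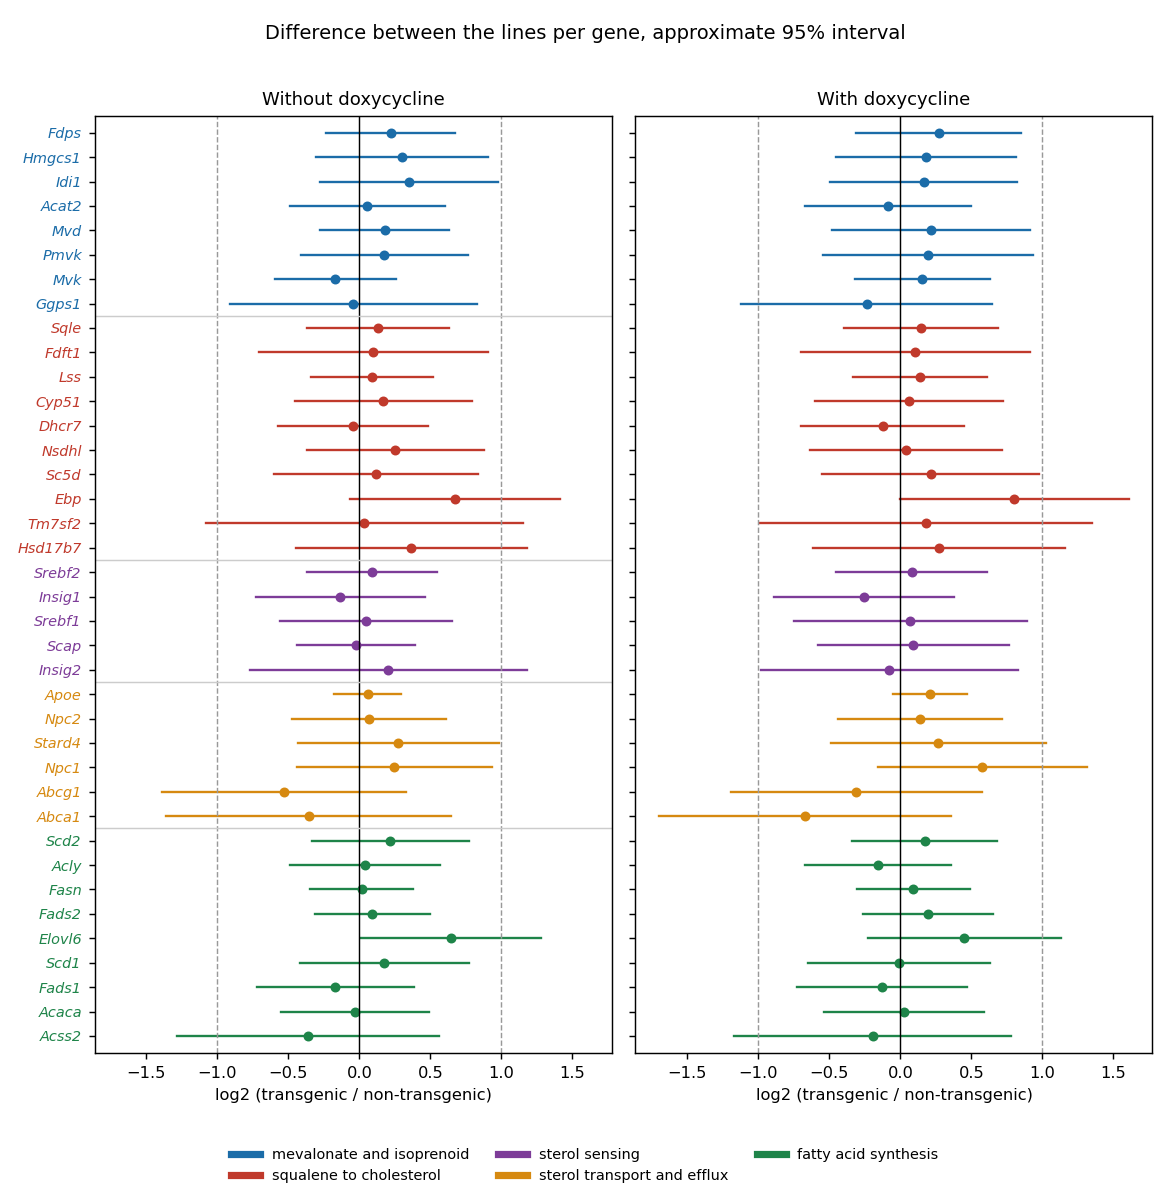
Log2 ratio of FPKM in the transgenic over the non-transgenic line for the 38 genes, without (left) and with doxycycline (right), with approximate 95% intervals from the deposited test statistic and dashed lines at a 2-fold change. Farthest to the right are Ebp (0.67) and Elovl6 (0.65) on the left panel and Ebp (0.80), Npc1 (0.58) and Elovl6 (0.45) on the right one, and no gene was called in either.

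**Figure D4:**
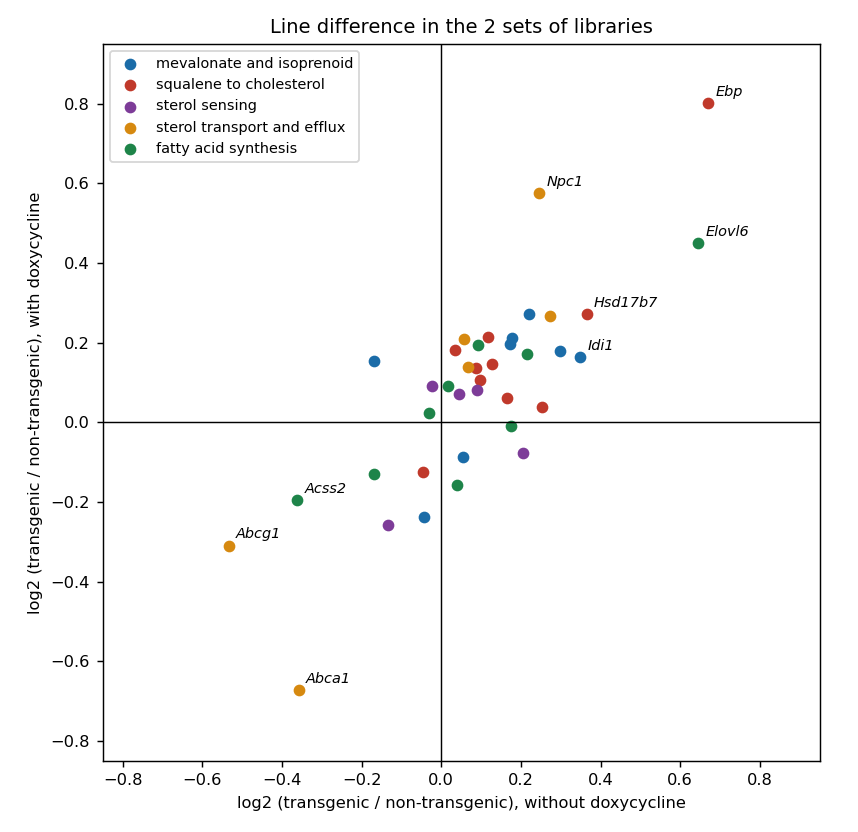
Log2 line difference of each of the 38 genes without doxycycline (x axis) against that with doxycycline (y axis), coloured by role, with names where either value passes 0.3 in size. There are 24 points at the upper right and 7 at the lower left, and Abca1 and Abcg1 are the farthest of the 7.

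A second list of 87 other genes of sterol and lipid metabolism was read in the same way, and 80 of them were tested. In response to doxycycline the authors' Cuffdiff-type test called 0 of 80 in each line, also 0 at an unadjusted p under 0.05.

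The most abundant of these other genes were Tecr, the reductase that ends each round of fatty acid elongation, at 172, 171, 154 and 156 FPKM, the acyl-CoA binding protein gene Dbi at 177, 160, 130 and 127 FPKM, and Vapa, a membrane contact protein, at 118, 119, 132 and 128 FPKM. None of these 3 was called in any of the 4 comparisons. The medians of the second list were 0.01 and 0.01 for doxycycline in the transgenic and non-transgenic line and 0.03 and 0.02 between the lines without and with doxycycline, over 76 genes on the log2(FPKM + 1) scale.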

How the data were processed

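The data are 8 libraries of 75 bp single-end reads in 4 groups of 2. Per the submitters' processing notes, the tools were TopHat2 2.0.8 and Cufflinks 2.1.1 and the build mm10. The role of each tool, the annotation and the strand setting were not given in the sources used here. For each gene and group the authors deposited 1 FPKM value, and for each comparison a test statistic that is a score with no fixed range, a p-value and a q-value, for 6 comparisons of which 4 were used. The deposited q-values equal Benjamini-Hochberg adjustment over 78127 tests of all 6 comparisons (largest difference 5.21e-07).

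Log2 ratios were computed from the deposited FPKM values, and medians on the log2(FPKM + 1) scale over genes with a mean over the 4 groups of at least 1 FPKM. A standard error is the log2 ratio over the deposited statistic, and an interval is 95% by the normal distribution. At the median of the list these errors exceeded those from the deposited p-values, at 0.316 against 0.205 for doxycycline in the transgenic line. Many of the intervals are therefore wider than the p-values would give. For Apoe and Mvk the reverse held in all 4 comparisons, so their intervals are narrower than their p-values would give. The difference between responses used a two-sided normal test over 12638 genes. It was also tried on simulated data, which cannot show whether errors taken from the deposited statistic are right for the real libraries. Gene starts in the file count from 0 and are given from 1. Each p-value rests on 2 libraries per group, which the labels call biological replicates. Because the values are pooled per group, the spread between those libraries and its part in a p-value cannot be seen. No precision from depth can be given. All genes of the list found in the table are named; full statistics go to the 3 smallest p-values of a comparison, and of the other pathway genes the rule names those called and the 3 most abundant, of which 1 result is not reported here. The genes, lists and tests were chosen with earlier results of these data known. Other settings tried were pseudocount, minimum level, scaling, threshold and adjustment. Python 3.11.15, pandas 2.3.3 and scipy 1.17.1 were used.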

Additional observations from a re-analysis of the deposited data

How the results depend on the processing

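Of 37 values recomputed under other settings, 34 were the same count or a median within 1.5 times of the value given, and no median changed sign. Some of the 37 are counts of called genes at 0, which could not move where a setting only added a minimum level. Between the lines without doxycycline 1 gene, Elovl6, was called with q under 0.1, and the median fell from 0.0900 to 0.0519 with each group scaled to the same total FPKM, a step that shifts all genes by -0.04. With doxycycline in the non-transgenic line the median was -0.0471 when centred on the median of all genes, which is 0.02, against -0.0266 as deposited. With standard errors taken from the deposited p-value in place of the statistic, 0 of 38 genes and 0 of 12638 genes differed in response, against 0 and 18 with the statistic, and intervals inside a 2-fold change rose from 34 to 37 genes for doxycycline in the transgenic line and from 30 to 32 between the lines without doxycycline. No paired analysis was possible because the deposited values are pooled per group, and for the same reason no library could be left out. The sample titles give every group 1 library with each of 2 shared labels, whose meaning is not stated. The intervals and the test of the response difference take no account of that possible pairing. Depth per library is unknown, and the low levels of Abca1, Abcg1 and Acss2 carry some of the widest intervals.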

Other observations

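Some further genes of lipid metabolism, chosen after their values were seen, had an unadjusted p under 0.05 between the lines both without and with doxycycline but did not pass the q threshold of the authors' deposited table. Acsl3, an acyl-CoA synthetase gene, was at 26.9 against 16.8 FPKM without doxycycline and 27.9 against 16.5 FPKM with it (transgenic against non-transgenic line, q = 0.398 and 0.378 in the authors' deposited table). Soat1, which makes cholesteryl esters for storage, was at 24.4 against 17.2 FPKM and 28.0 against 18.4 FPKM (q = 0.395 and 0.266 in the same deposited table). At lower values in the transgenic line stood Mlxipl, a carbohydrate-responsive transcription factor gene, at 1.24 against 2.55 FPKM and 1.25 against 2.97 FPKM, and Acss1, the mitochondrial acetate-activating enzyme gene, at 0.973 against 2.05 FPKM and 0.955 against 2.24 FPKM. Their q-values in the deposited table ran from 0.104 to 0.318. In all, 6 of 80 tested genes of the second list had an unadjusted p under 0.05 without doxycycline and 7 of 80 with it, close to the shares of all tested genes given above.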
